A study of Rattus norvegicus with 6 samples.

Results

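Cyp2e1, the epoxide hydrolase genes Ephx1 and Ephx2, the flavin monooxygenase genes Fmo1, Fmo2, Fmo4 and Fmo5, the P450 reductase gene Por and Cyp1b1 were followed in rat renal cortex after 1,2-dibromoethane, a brominated compound once used to fumigate soil. The 9 genes were chosen for their part in the oxidative metabolism of the compound, and every probe whose transcript accession belongs to one of them was taken. This gave 11 probes for the 9 genes, of 61453 probes and 15645 gene symbols on the array. The treated animals were 3 male Sprague-Dawley rats, an outbred stock, that received 75 mg/kg/day of 1,2-dibromoethane for 4 weeks, and the controls were 3 male rats of the same stock that received corn oil for 4 weeks. All were bought at 5 weeks of age. Total RNA of each animal's renal cortex was hybridised to 1 single-colour array, with no pooling of animals.

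Cytochrome P450 2E1 is the isoform best known for oxidising small halogenated hydrocarbons, and it turns 1,2-dibromoethane into the reactive bromoacetaldehyde. Microsomal P450 enzymes receive their electrons from the reductase encoded by Por. Epoxide hydrolases open reactive epoxides to diols: the microsomal enzyme, encoded by Ephx1, acts mainly on foreign epoxides, and the soluble enzyme, encoded by Ephx2, on the epoxides of arachidonic acid that regulate renal blood vessels and salt transport. Flavin monooxygenases oxygenate nitrogen and sulphur atoms of drugs and foods, and Cyp1b1 encodes a P450 found mostly outside the liver and induced through the aryl hydrocarbon receptor.

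Between 59.2% and 67.8% of the analysed probes were well above background on each array, and none was saturated. All levels below are on the log2 scale relative to the 75th percentile of the array, and differences are dibromoethane minus control. Arrays correlated at r = 0.990 to 0.993 within groups and at 0.988 to 0.992 between groups, across probes. The arrays lay on 3 slides: slide 1 held dibromoethane replicate 2 with control replicates 1 and 2, slide 2 held dibromoethane replicate 1 with control replicate 3, and slide 3 held dibromoethane replicate 3 alone. Markers of the first parts of the proximal tubule, the main cell of the cortex, were all present: 10 of 10 genes were tested, with mean log2 levels over 19 probes of 5.66 to 5.76 in dibromoethane rats and 5.78 to 5.85 in controls. Transcripts typical of liver were present too. Their mean log2 level over 27 probes was 1.24, 0.11 and -0.46 in dibromoethane replicates 1 to 3, against -2.21, -0.58 and -0.78 in control replicates 1 to 3. These means did not overlap between groups, but the nearest, -0.46 and -0.58, lay close. In 17 of the 27 probes the groups overlapped. In the other 10 all dibromoethane rats were higher than all controls, beside 7.57% of all tested probes. A further limit is that 7 of the 27 were kept only because all dibromoethane arrays were well above background. A bulk sample cannot separate fewer cells of a type from less RNA per cell.

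The promoters of Ephx1 and Cyp2e1 are shown because Ephx1 had the smallest p of the members and Cyp2e1 is the oxidase of the compound. The windows come from RefSeq on build GRCr8 and run from 250 bases before to 50 bases after the gene start. The array's own grid names build rn4, so no coordinate below belongs to a probe. Capitals mark matches, on either strand, to 6 motifs: the TATA box (TATAAA), the core of the antioxidant response element (TGACNNNGC), the core of the xenobiotic response element (GCGTG), a site for HNF1, the GC box (GGGCGG) and the CCAAT box (CCAAT). Ephx1 has 2 starts in the table, both on the minus strand, at chr13:95275803-95276102 (start 1) and chr13:95263068-95263367 (start 2), and Cyp2e1 has 1 on the plus strand, at chr1:205269717-205270016.
Ephx1 start 1: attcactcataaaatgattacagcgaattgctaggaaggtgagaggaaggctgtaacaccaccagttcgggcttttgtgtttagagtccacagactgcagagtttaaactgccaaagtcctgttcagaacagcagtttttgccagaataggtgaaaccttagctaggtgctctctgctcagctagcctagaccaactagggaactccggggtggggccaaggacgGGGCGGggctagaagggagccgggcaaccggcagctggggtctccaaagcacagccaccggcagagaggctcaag
Ephx1 start 2: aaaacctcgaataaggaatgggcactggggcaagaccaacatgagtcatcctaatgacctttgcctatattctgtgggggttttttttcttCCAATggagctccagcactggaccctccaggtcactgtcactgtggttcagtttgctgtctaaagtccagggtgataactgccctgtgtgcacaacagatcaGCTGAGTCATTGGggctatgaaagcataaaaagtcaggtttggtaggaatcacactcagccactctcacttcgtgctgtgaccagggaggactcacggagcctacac
Cyp2e1: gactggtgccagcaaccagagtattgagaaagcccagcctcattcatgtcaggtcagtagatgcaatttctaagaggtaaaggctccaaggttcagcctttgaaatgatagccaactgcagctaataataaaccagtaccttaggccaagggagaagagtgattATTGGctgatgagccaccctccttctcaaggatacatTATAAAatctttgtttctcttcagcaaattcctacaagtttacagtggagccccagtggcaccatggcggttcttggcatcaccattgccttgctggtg

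The window at start 1 of Ephx1 holds a GC box that begins 25 bases before the start. The window at start 2 holds 1 core of the antioxidant response element on the opposite strand (first base at -57), whose last base here is shared with a reversed CCAAT box, and a further CCAAT box at -159. That core occurs in 12.1% of all 33469 windows of the table, and the GC box in 33.1%. The Cyp2e1 window holds a TATA box at -49, a motif found in 14.2% of windows, and a reversed CCAAT box at -86; the CCAAT box occurs in 37.5%. The xenobiotic response element core, present in 29.7% of windows, lies at 2 places in the Cyp1b1 window and at 3 in that of Por. The HNF1 letters, found in 0.0329% of windows, are in none of the 8 windows of the 7 members that the table lists. A match describes the letters only.

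No member probe passed the test over all probes. Of 11 member probes, 9 were well above background on all 6 arrays and were tested, and 0 had an adjusted p under 0.05 in limma, where 0.0268% of 37274 tested probes did. At an unadjusted p under 0.05 there were 2 of 9, those of Ephx1 and Fmo4, both higher in dibromoethane rats, beside 11.3% of all tested probes (4.69% higher and 6.58% lower). The same 2 were the tested member probes whose groups did not overlap, which held for 19.3% of all tested probes (7.57% higher and 11.8% lower). Of the 9 differences 6 were positive, the second Fmo2 probe (0.00 after rounding) not counted, against 46.8% of all tested probes, and their median was 0.11, against -0.01 over all tested probes.

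**Figure D1:**
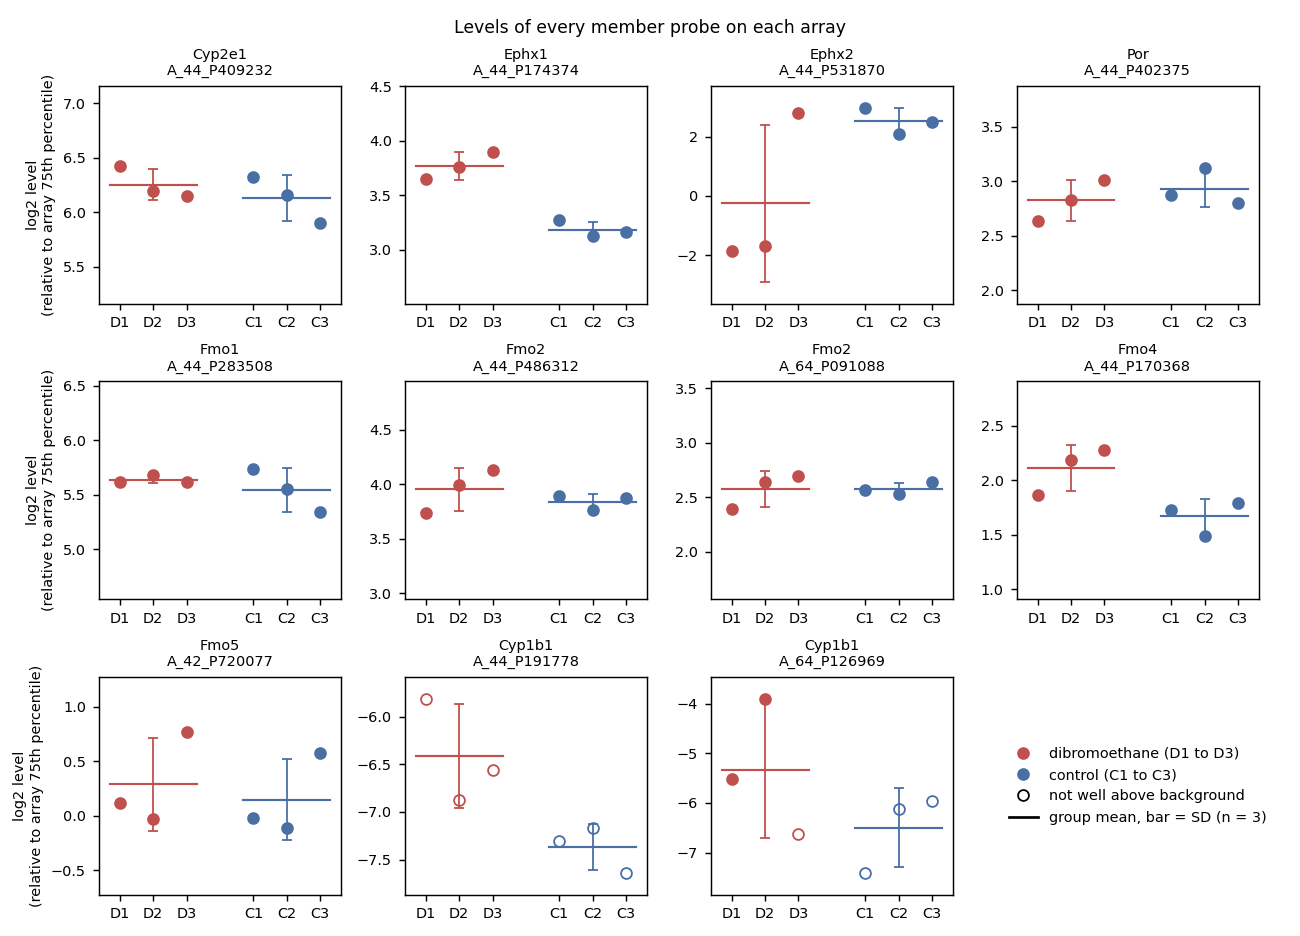
Log2 level (y axis, relative to the array's 75th percentile) of each of the 11 member probes on each array, with dibromoethane rats (red, D1 to D3) left of controls (blue, C1 to C3); lines are group means, bars SD of 3 arrays, and open circles are spots not well above background. The Ephx1 groups are apart, D1 and D2 lie over 3 log2 units below every other array for Ephx2, and each y axis has its own range.

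Ephx1, the microsomal epoxide hydrolase, had the most even difference of the members. Its log2 level was 3.65, 3.76 and 3.90 in dibromoethane replicates 1 to 3, against 3.27, 3.13 and 3.16 in control replicates 1 to 3. Every treated rat lay above every control. The mean was 3.77 ± 0.12 in dibromoethane rats and 3.18 ± 0.08 in controls (SD, n = 3 each), a 1.5-fold higher level (log2 difference 0.59, SE 0.09, 95% interval 0.36 to 0.81; limma adjusted p = 0.217). The unadjusted limma p was 0.000629, so the difference was large against the spread between these animals but did not pass the adjustment over all probes. It was 0.57 within slide 1 and 0.49 within slide 2. Among dibromoethane rats the level was highest in replicate 3, whose liver-type level was the lowest of the group, and lowest in replicate 1, whose liver-type level was the highest.

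The spread in Ephx2, the soluble epoxide hydrolase, lay within the dibromoethane group. Its log2 level was -1.86, -1.71 and 2.80 in dibromoethane replicates 1 to 3, against 2.98, 2.09 and 2.49 in control replicates 1 to 3. Replicates 1 and 2 of the treated group stood at -4.38 and -4.23 log2 units from the control mean, while replicate 3 stood at 0.28, inside the range of the controls. On the linear scale the signal was 0.276, 0.305 and 6.98 times the array's 75th percentile in the dibromoethane rats and 7.9, 4.25 and 5.63 times in the controls. The spots were well above background on all 6 arrays, the low ones included.

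This range of 4.66 log2 units within dibromoethane rats was matched or exceeded by 6 of the 37274 tested probes, Ephx2 itself counted, and 15 probes had a range of that size within controls. Probes at background in some animals of each group were not tested, so these counts leave them out. One such probe, of Cyp2c24 and named after its values were seen, was at -7.85, 1.77 and -7.67 in dibromoethane replicates 1 to 3. It was well above background on 1 of those 3 arrays. The median range over all tested probes was 0.25 in dibromoethane rats and 0.24 in controls. The group difference was -2.78 (SE 1.26, 95% interval -5.83 to 0.28; limma adjusted p = 0.47), and it rests on the same 2 animals. Without dibromoethane replicate 3 it was -4.31 (limma adjusted p = 0.053), without replicate 1 it was -1.98 and without replicate 2 it was -2.05. The animals with low Ephx2 lay on slides that also held controls: the difference was -4.25 within slide 1 and -4.35 within slide 2. Replicate 3 lies on a slide of its own, so that its animal and its slide cannot be told apart. Ephx2 was read by 1 probe, whose sequence was not used here, and the genotypes of these outbred rats were not analysed here.

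The genes beside Ephx2 on chromosome 15, taken by gene order in GRCr8 after the Ephx2 values were seen, did not share its size of difference. Of the 5 protein-coding genes on each side, 8 had a tested probe, with 12 probes in all and 0 called in limma. At an unadjusted p under 0.05 there were 5 of the 12, beside 11.3% of all tested probes. Scara3, a scavenger receptor gene 4 places away, came nearest in shape, at -3.43, -3.27 and -1.86 in dibromoethane replicates 1 to 3 and -2.18, -2.88 and -2.02 in control replicates 1 to 3. Its lowest values were those of dibromoethane replicates 1 and 2, but control replicate 2 was low too. Clu, the secreted chaperone clusterin and 3 places away, was at 3.85, 4.03 and 2.97 in dibromoethane replicates 1 to 3 and at 2.69, 3.59 and 2.69 in control replicates 1 to 3 with one probe, and its other probe gave a like pattern. On both probes the 2 rats with low Ephx2 had the highest values of the 6 animals.

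On the other side, Chrna2, a nicotinic receptor subunit gene next to Ephx2, had -5.11, -5.20 and -5.36 in dibromoethane rats and -4.66, -3.50 and -4.27 in controls, and was well above background on 1 of 3 dibromoethane arrays and 3 of 3 control arrays. It passed the filter only through the controls. Adra1a, an alpha-adrenergic receptor gene 5 places away, had log2 differences of -0.64 (SE 0.08, limma adjusted p = 0.182) and -0.65 (SE 0.15, limma adjusted p = 0.308) with its 2 probes. Ptk2b, a calcium-activated tyrosine kinase gene, had 0.35 (SE 0.10; limma adjusted p = 0.357) and 0.31 (SE 0.09; limma adjusted p = 0.361). In these 3 genes all dibromoethane rats lay on the same side of all controls, replicate 3 included, unlike Ephx2. For Chrna2 the filter fixed that direction. Of the 8 neighbour genes with a tested probe, 4, Trim35 included, had a probe whose groups did not overlap. For Trim35 that probe differed by -0.11, and its other probe, at 0.04, had groups that overlapped. Over the array 19.3% of tested probes did not overlap, a share of probes and not of genes.

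**Figure D2:**
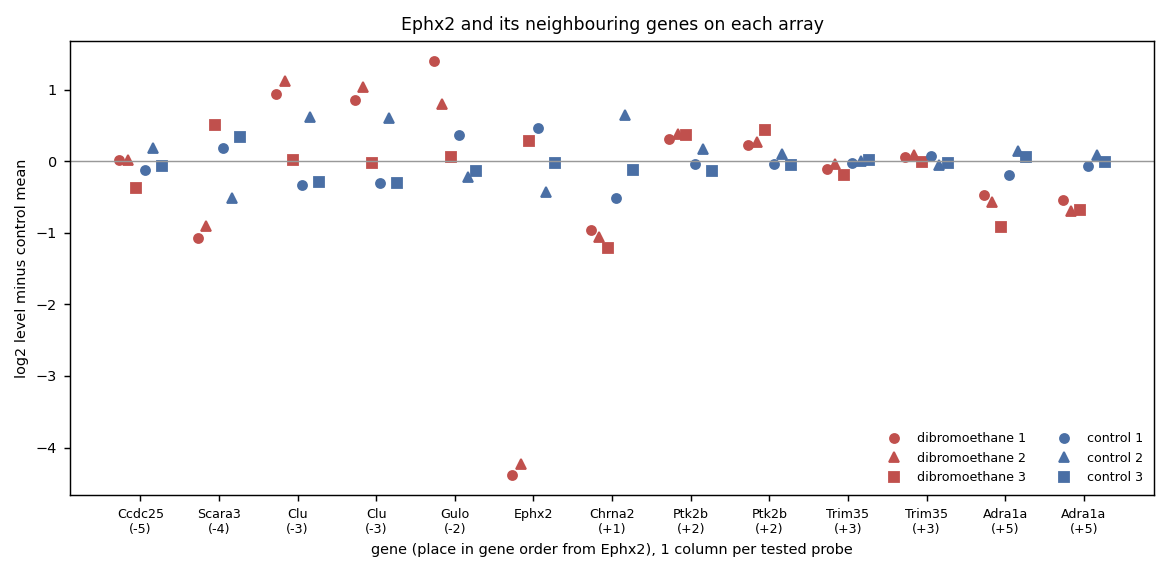
Log2 level minus the control mean (y axis) on each array for Ephx2 and the 12 tested probes of its neighbours, in gene order (x axis, place from Ephx2), with dibromoethane rats in red and controls in blue. Ephx2 in dibromoethane replicates 1 and 2 lies at -4.38 and -4.23 from the control mean, and no neighbour's point lies farther than 1.39 from its own.

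Cyp2e1 itself differed by less than the spread between animals. Its log2 level was 6.42, 6.19 and 6.15 in dibromoethane replicates 1 to 3, against 6.32, 6.16 and 5.90 in control replicates 1 to 3. The groups overlapped. The difference was 0.12 (SE 0.14, 95% interval -0.21 to 0.46; limma adjusted p = 0.756). It was -0.06 within slide 1 and 0.52 within slide 2. Both groups had their highest value in replicate 1. The mean liver-type level was 1.24 in dibromoethane replicate 1 and -2.21 in control replicate 1, and its part in the Cyp2e1 values was not tested.

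Por, the electron donor of Cyp2e1, lay at 2.63, 2.83 and 3.01 in dibromoethane replicates 1 to 3, against 2.87, 3.12 and 2.80 in control replicates 1 to 3. The groups overlapped, with a difference of -0.10 (SE 0.13, 95% interval -0.43 to 0.22; limma adjusted p = 0.795). Cyp1b1 was near the floor of the array. One of its probes, A_44_P191778, was well above background on none of the 6 arrays. The other, A_64_P126969, was well above background on 2 of 3 dibromoethane arrays and on 0 of 3 control arrays, at -5.51, -3.90 and -6.62 in dibromoethane rats and -7.41, -6.12 and -5.97 in controls. Neither was tested, and no fold is given, because the dibromoethane mean of the second probe, -5.34, is below the mean floor of the control arrays, -5.19. Its highest value was that of dibromoethane replicate 2.

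Among flavin monooxygenases Fmo4 differed most. Its log2 level was 1.87, 2.19 and 2.28 in dibromoethane replicates 1 to 3, against 1.73, 1.49 and 1.79 in control replicates 1 to 3. The groups did not overlap, though the lowest treated rat lay close to the highest control. The mean was 2.11 ± 0.22 in dibromoethane rats and 1.67 ± 0.16 in controls (SD, n = 3 each), a log2 difference of 0.44 (SE 0.14, 95% interval 0.10 to 0.78; limma adjusted p = 0.368). It was 0.58 within slide 1 and 0.08 within slide 2, and dibromoethane replicate 3, the highest, was alone on slide 3.

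Fmo1, which lies next to Fmo4 on chromosome 13 and encodes a form prominent in rat kidney, had 5.62, 5.68 and 5.62 in dibromoethane rats and 5.74, 5.55 and 5.34 in controls. The treated values lay inside the control range, with a difference of 0.09 (SE 0.11, 95% interval -0.18 to 0.37; limma adjusted p = 0.773), which was -0.01 without control replicate 3. Fmo2, best known as the lung form and the next gene in the row, had 2 probes that gave 0.11 (95% interval -0.17 to 0.39; limma adjusted p = 0.729) and 0.00 (95% interval -0.25 to 0.25; limma adjusted p = 0.995). With the first probe its levels were 3.74, 3.99 and 4.13 in dibromoethane rats and 3.89, 3.76 and 3.87 in controls. On both probes the lowest Fmo2 value of all 6 arrays was that of dibromoethane replicate 1. Fmo5, which lies on chromosome 2 and differs from its relatives in acting on ketones, had 0.12, -0.03 and 0.77 in dibromoethane replicates 1 to 3, against -0.02, -0.11 and 0.57 in control replicates 1 to 3. Replicate 3 was the highest in each group, and those 2 arrays were on different slides. Its difference of 0.14 (SE 0.27, 95% interval -0.52 to 0.80; limma adjusted p = 0.868) was -0.18 with slide as a fixed block.

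**Figure D3:**
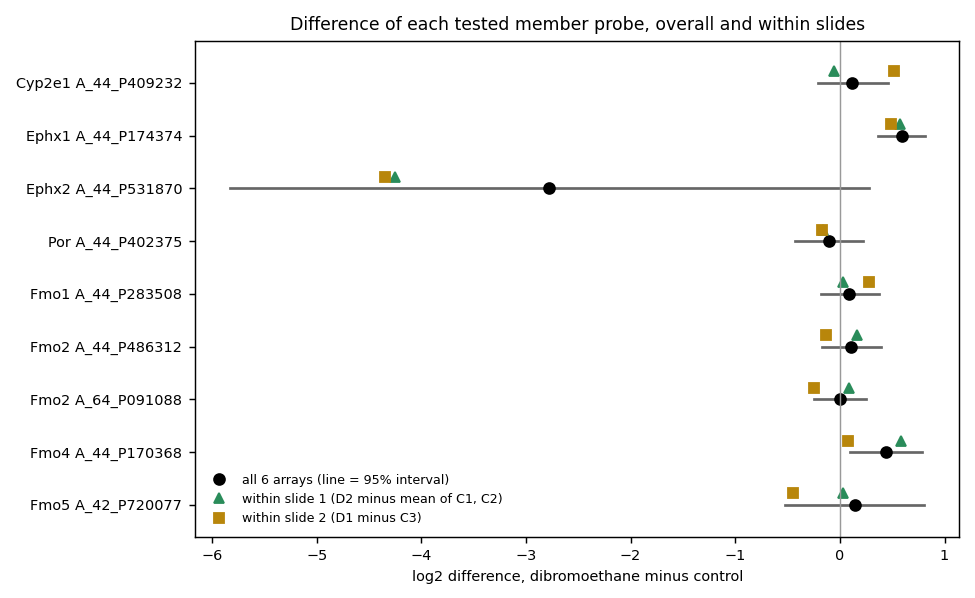
Log2 difference, dibromoethane minus control (x axis), for the 9 tested member probes (y axis): black points with 95% intervals use all 6 arrays, green triangles are differences within slide 1 and yellow squares within slide 2. Ephx1 and Fmo4 have intervals above 0, and the within-slide values of Ephx2 (-4.25 and -4.35) both lie below its overall -2.78.

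By likeness over the 6 arrays, the 3 named genes whose probes followed Ephx1 most closely were Napepld (Pearson r = 0.995), a phospholipase that makes acylethanolamides, the zinc finger gene Zfp384 (r = 0.993) and the phosphatase gene Ptpn13 (r = 0.993). All 3 were higher in every dibromoethane rat than in every control, by 0.23, 0.23 and 0.31 on the log2 scale. They were picked for following Ephx1, whose groups did not overlap, so this direction follows largely from the choice. Of 19733 named probes compared, 108 reached r over 0.95. The genes most like Cyp2e1 were Wbp4 (r = 0.993), Fbxo46 (r = 0.991) and Cimap1b (r = 0.989), with 25 probes over 0.95. For Ephx2, looked at after its values were seen, they were Nxpe3 (r = 0.995), Ly6g6d (r = 0.982) and Ubr7 (r = 0.979). Nxpe3 was at -1.26, -1.19 and -0.60 in dibromoethane replicates 1 to 3, against -0.62, -0.67 and -0.69 in control replicates 1 to 3, the same 2 rats being low by a far smaller step. Nxpe3 was picked for this shape. These correlations are descriptions across arrays of 2 groups and carry no test.

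The rest of the pathway was followed with 8 lists of 78 genes, of which 71 had a probe and 55 a tested one. Of their 96 tested probes 0 were called in limma, and 20 (20.8%) reached an unadjusted p under 0.05 (11 were higher, 9 lower), beside 11.3% of all tested probes. Their median log2 difference was 0.04. Of the 96, 13 passed the filter only through the dibromoethane arrays, where they had to be the brighter ones. Over probes well above background on all 6 arrays the share was 13 of 82 (15.9%, 4 higher and 9 lower), beside 4014 of 35287 over the array (11.4%).

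Haem synthesis supplies the cofactor of every P450. Alas1, its rate-limiting enzyme outside red cells, had 6.13, 5.86 and 6.11 in dibromoethane rats, against 5.38, 5.60 and 5.38 in controls. All treated rats lay above all controls, with a 1.5-fold higher mean (log2 difference 0.58, SE 0.11; limma adjusted p = 0.244). Urod, a later enzyme of the pathway, lay on the other side, with 4.18, 4.24 and 4.12 in dibromoethane rats and 4.56, 4.53 and 4.33 in controls (log2 difference -0.29, SE 0.09; limma adjusted p = 0.361). The list had 3 of 11 tested probes at an unadjusted p under 0.05, 1 higher and 2 lower, beside 11.3% of all tested probes. The 2 lower ones were both probes of Urod. The median of the list was 0.10.

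The electron transfer partners of P450 had a median of 0.10 over 19 probes, 15 of them positive, beside 46.8% of all tested probes. An unadjusted p under 0.05 was reached by 2 of the 19, beside 11.3% of all tested probes. These were a probe of Cyb5b, the outer mitochondrial cytochrome b5 (0.28, SE 0.12, limma adjusted p = 0.44), and a probe of Pgrmc2, a haem-binding membrane protein (-0.18, SE 0.07, limma adjusted p = 0.403). Other probes differed by 0.04 for Cyb5b and by 0.07 and 0.01 for Pgrmc2. Among other epoxide hydrolases Ephx4 had -2.67, -2.34 and -2.57 in dibromoethane rats, against -2.29, -2.26 and -2.28 in controls (log2 difference -0.25, SE 0.10; limma adjusted p = 0.441). One Ephx3 probe was well above background on no array and the other only on 1 control array, so neither was tested. Lta4h, which makes leukotriene B4, differed by 0.01 (SE 0.07).

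Of the other xenobiotic P450 genes 23 probes were tested, and 11 of them passed the filter only through the dibromoethane arrays. These 11 include 6 of the 7 probes that were higher at an unadjusted p under 0.05, so that the filter fixed their direction. Of the 12 probes well above background on all 6 arrays, 5 differences were positive and 7 negative. Cyp2r1, a vitamin D 25-hydroxylase gene named after its values were seen, had -0.76, -0.80 and -1.10 in dibromoethane rats and -1.07, -1.42 and -1.30 in controls, and was the 1 of the 12 that was higher at that p, while 2 were lower. Cyp2a2, a testosterone hydroxylase of male rat liver, had -3.90, -4.19 and -4.68 in dibromoethane rats and -6.19, -5.48 and -5.21 in controls, and was well above background on 3 of 3 dibromoethane and 1 of 3 control arrays. One Cyp2b3 probe had -2.29, -3.66 and -3.87 in dibromoethane rats and -5.20, -4.77 and -4.47 in controls, and was detected on the same numbers of arrays. A brighter Cyp2b3 probe had -1.08, -2.49 and -3.25 in dibromoethane rats and -5.13, -3.47 and -3.25 in controls. It was well above background on 3 of 3 dibromoethane and 2 of 3 control arrays. No difference is given for these probes, because not all control arrays were well above background. On each of them the highest value was that of dibromoethane replicate 1 and the lowest that of control replicate 1, as for the liver-type transcripts. The mean difference was positive for all 27 liver-type probes, beside 46.8% of all tested probes, with 0 called in limma. At an unadjusted p under 0.05, 10 were higher, beside 4.69% of all tested probes. Of these 10, 5 were well above background on all 6 arrays. In 17 of the 27 the groups overlapped. In 10 they did not, all higher in dibromoethane rats, beside 7.57% of all tested probes. Of the 27, 7 passed the filter only through the dibromoethane arrays. Among them the fetuin gene Ahsg stood at 0.28, -1.25 and -2.17 in dibromoethane replicates 1 to 3, against -4.64, -2.87 and -3.16 in control replicates 1 to 3. The part of liver-type RNA in the P450 differences was not tested.

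**Figure D4:**
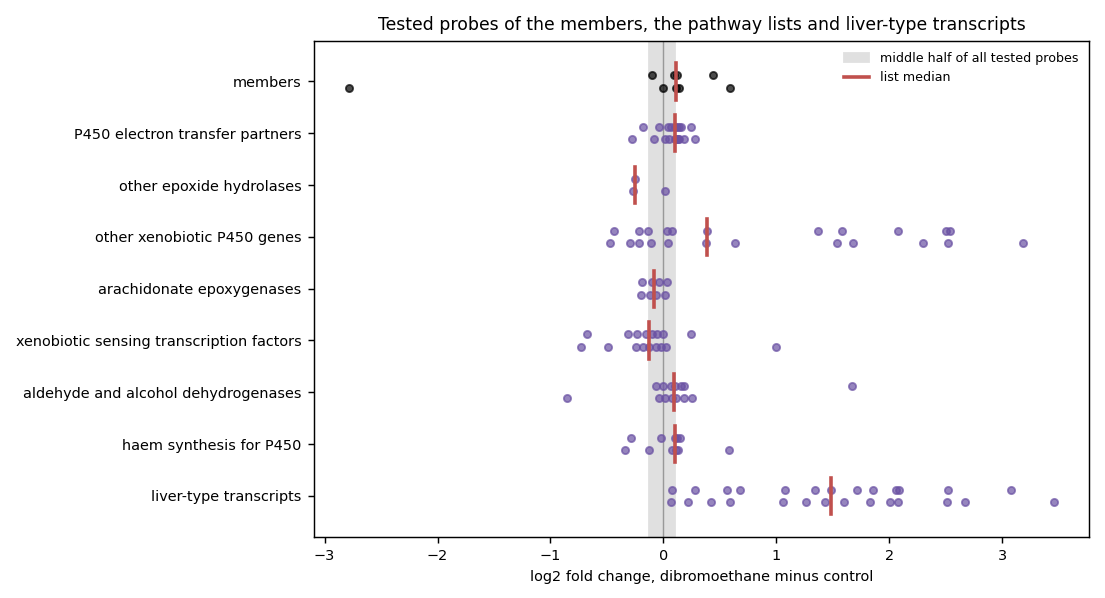
Log2 fold change, dibromoethane minus control (x axis), of each tested probe of the members, the 7 pathway lists with more than 1 tested probe and the liver-type transcripts (y axis); red bars are list medians and the grey band spans the middle 50% of all tested probes (-0.13 to 0.10). Most member and pathway probes lie near 0. Those farther out include Ephx2, an Aldh1b1 probe at -0.85 and Ppara probes at -0.73 and -0.68. On the positive side they include an Adh4 probe, an Nr1i3 probe and P450 probes, which passed the filter only through the dibromoethane arrays.

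Arachidonate epoxygenases, whose products are the substrates of the soluble epoxide hydrolase, had a median of -0.08. Among their 8 tested probes 0 had an unadjusted p under 0.05, beside 11.3% of all tested probes. The probes of smallest p for Cyp2j3 and Cyp2j4 differed by -0.19 (SE 0.10, limma adjusted p = 0.511) and -0.20 (SE 0.31, limma adjusted p = 0.826). Other tested probes differed by -0.12 and -0.07 for Cyp2j3 and by 0.03 and 0.01 for Cyp2j4. The transcription factors that sense foreign compounds had 13 of 17 probes negative and a median of -0.13. An unadjusted p under 0.05 was reached by 3, all lower, beside 6.58% of all tested probes. These were probes of Ahrr and Ppara only. Ahrr, the repressor of the aryl hydrocarbon receptor, had -1.12, -1.40 and -1.30 in dibromoethane rats and -0.50, -1.07 and -0.78 in controls (log2 difference -0.49, SE 0.16; limma adjusted p = 0.376). Ppara, the receptor that drives fatty acid oxidation and, in rodents, expression of the soluble epoxide hydrolase, differed by -0.73 (SE 0.24; limma adjusted p = 0.378), with -0.30 in dibromoethane replicate 1 above control replicate 2 at -0.35. In the dehydrogenases that clear aldehydes and alcohols, 2 of 14 probes had an unadjusted p under 0.05, beside 11.3% of all tested probes. One, of Aldh9a1, differed by 0.25 (SE 0.08, limma adjusted p = 0.364) and was higher in all 3 dibromoethane rats than in every control. A brighter Aldh9a1 probe differed by 0.11 (SE 0.10, limma adjusted p = 0.695), and its groups overlapped. The other of the 2 probes at that p, of Adh4, was well above background on 3 of 3 dibromoethane and 1 of 3 control arrays. It passed the filter only through the dibromoethane arrays.

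No probe of any marker list was called in limma, and the lists' mean levels were as follows. Stromal markers averaged 0.71 to 0.89 in dibromoethane rats and 0.43 to 0.60 in controls over 18 probes. Of these, 6 were higher at an unadjusted p under 0.05, beside 4.69% of all tested probes. Macrophage markers averaged 1.54 to 1.75 in dibromoethane rats and 1.81 to 1.87 in controls over 15 probes. Of these, 7 were lower at that p, beside 6.58% of all tested probes. All 7 belonged to C1qa, C1qb, C1qc and Aif1. The probes of Csf1r (0.05 and 0.05), Lyz2 (0.08 and 0.14) and Cd68 (-0.03 and -0.04) differed little. Over the list 4 differences were positive and 11 negative. Blood markers averaged 1.52 to 2.06 in dibromoethane rats and 1.76 to 1.96 in controls over 6 probes, so these means overlapped. Of the 6, 3 were lower at that p, beside 6.58% of all tested probes. They were those of the beta globin gene Hbb (-0.43 and -0.48) and of Alas2 (-0.52), the red cell form of the haem synthesis enzyme. Their groups did not overlap, as for 11.8% of all tested probes with lower values. The other 3 differences were positive. Endothelial markers averaged -0.80 to -0.72 in dibromoethane rats and -0.86 to -0.83 in controls over 10 probes. In the late proximal tubule list dibromoethane replicate 3, the treated rat with high Ephx2, stood lowest at 0.75, against 1.63 and 1.69 in the other treated rats and 1.68 to 1.80 in controls. It also stood lowest in the thick ascending limb list, at 2.46, against 2.84 and 3.12 in the other treated rats and 3.01 to 3.08 in controls. The part of these cells in the values of Ephx1, Ephx2 and Fmo4 was not tested.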

How the data were processed

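Intensity values per spot were deposited as scanner tables of Agilent Feature Extraction 10.7.1.1, per the file headers, with background subtracted in the processed signal; the submitters' processing notes name version 10.7. The deposited series table holds intensity values that equal the processed signal over the array's 75th percentile (r = 1.000 for each of the 6 arrays, log2 scale), linear and not centred by gene; the median per column was 0.11, 0.106 and 0.107 for dibromoethane and 0.102, 0.102 and 0.112 for control replicates 1 to 3. Of 62976 spots, 1439 control spots and 84 spike-in probes were left out. Accessions without versions were matched to RefSeq (GRCr8), which named 28206 probes (45.9%); 33247 are unnamed here. Processed signal was put on the log2 scale, each array's 75th percentile was subtracted, and probes were fitted with limma 3.58.1 (lmFit, eBayes; R 4.3.3), two-sided, without covariates, Benjamini-Hochberg over 37274 probes detected above background throughout 1 group or both, 19740 of them named; 1 to 11 outlier spots per array were set to missing. The fit was tested on simulated data. The labels describe separate animals; 3 arrays per group limit the precision. The scanner tables hold no mean spot signal, so normexp used median signals.

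Members, gene lists and tests were chosen with earlier results of these data known. Genes named were all members, 2 genes of smallest p in each pathway list, and the 3 genes most like Cyp2e1 and Ephx1; neighbours of Ephx2, genes most like it, and the cell type values shown were chosen after values were seen. Of the marker lists, thick ascending limb had a median difference of -0.21 over 11 probes, distal tubule and collecting duct 0.08 over 12, podocyte -0.08 over 13, blood -0.20 over 6, perirenal fat -0.25 over 4, adrenal cortex -0.23 over 2, proximal tubule -0.09 over 19 and its last segment -0.25 over 12. Alternatives were other normalizations, filters, probe summaries, slide, scan day and replicate blocks, other variance models and leaving out each array. The result of 1 pathway gene is not reported here.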

Additional observations from a re-analysis of the deposited data

How the results depend on the processing

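None of the 9 tested member probes was called by limma under the alternatives run (20 or 21 a probe), in 188 values with 0 past the threshold. Ephx1 ranged from 0.52 to 0.65 (adjusted p 0.0926 to 0.696), Fmo4 from 0.35 to 0.56 and Ephx2 from -4.31 to -1.98 (adjusted p 0.053 to 0.866); with slide as a fixed block Ephx2 was at -4.29 (adjusted p = 0.256). Fmo5 turned to -0.18 with slide as a fixed block, which is the same fit as using only slides with both groups, and to -0.10 without dibromoethane replicate 3 (up to 0.35 without control replicate 3), Fmo1 turned to -0.01 without control replicate 3, in a range of -0.01 to 0.19 when 1 array was left out, and the second Fmo2 probe, at 0.00, lay on either side of 0 (-0.06 to 0.09). The count of called probes, 10 over the array, was 6 with normexp on median signals (a choice made after seeing the data), 1 with no filter, 0 with slide as a fixed block (4378 at an unadjusted p under 0.05 in limma; only slides with both groups, the same), 2 with scan day as a block, 20 with trend and robust, and 1 to 13 when 1 array was left out (without dibromoethane replicates 1, 2 and 3 it was 1, 3 and 6, and without control replicates 1 and 2 it was 4 and 1). Apart from more probes tested without a filter and fewer degrees of freedom with blocks, the cause was not tested.

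The labels give both groups replicate numbers 1 to 3. Deviations of same-numbered arrays correlated at -0.20, 0.24 and 0.13, and 3 of 6 arrays were nearest to their own number. With 3 arrays per group this check cannot decide whether the numbers pair the animals. The main fit did not pair them. With the replicate number as a block 0 probes were called in limma (4451 at an unadjusted p under 0.05), members included; the design fixes the differences, and the adjusted p of Ephx1 was 0.342. Precision is limited by 3 arrays per group, and Cyp1b1 by signal near background.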
